A study of Mus musculus with 4 samples.

Results

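Genes that make, bind or break down retinoic acid were examined in large peritoneal macrophages (LPMs), which reside in the abdominal cavity. The genes were *Cyp26a1*, *Cyp26b1*, *Aldh1a1*, *Aldh1a2*, *Rdh10*, *Rdh11*, *Dhrs3*, *Rbp4* and *Crabp2*, matched by symbol, and 7 of these 9 were among the 18364 genes of the expression table. *Rbp4*, which encodes the plasma carrier of retinol, and *Crabp2*, which encodes a cytosolic carrier of retinoic acid, had no entry, so no value was analysed for them here. The LPMs came from 8-week-old C57BL/6 mice and were sorted as F4/80+ MHCII-negative CD102+ cells, and bulk RNA was sequenced from 2 libraries labelled WT and 2 labelled Rxra-KO (genotype *Rxra*-/-). In the methods of the study, the deletion was made with Cre expressed from the *Lyz2* locus (LysM), which acts in myeloid cells. The controls were *Rxra* fl/fl mice, which also carry the floxed allele and are written without Cre. Whether a library came from 1 mouse or from pooled mice is not given in the sources used here. P-values therefore measure the spread between these libraries, taken mostly from a trend over all genes, and this spread may be technical.

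Retinoic acid is made from vitamin A in cells that express the necessary enzymes. Retinol dehydrogenases such as RDH10 oxidise retinol to retinal, DHRS3 reduces retinal back to retinol, and the ALDH1A enzymes oxidise retinal to retinoic acid. Enzymes of the CYP26 family then hydroxylate retinoic acid and so clear it. Retinoic acid binds retinoic acid receptors (RARs), which sit on DNA as heterodimers with retinoid X receptors (RXRs), and *Cyp26a1*, *Dhrs3* and *Rarb* are textbook targets of these heterodimers. In LPMs, retinoic acid from the surrounding stroma is known to sustain the transcription factor GATA6.

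A classical RAR:RXR binding element is a pair of 6-base hexamers in the same orientation with 5 bases between them (DR5). The RefSeq promoter windows (GRCm38.p6), which run from 250 bases before to 50 bases after a transcription start, were searched on both strands. The hexamers allowed were AGGTCA as the consensus form, AGTTCA as a common variant, and also GGGTCA as well as GGTTCA. Windows were given for 6 of the 7 genes (all but *Rdh10*), and *Cyp26a1* was the 1 gene among them with a DR5 match. Over all 32851 windows, 0.0974% held such a pair. The 30 bases around the match are shown because *Cyp26a1* is the gene whose level differed, with the same stretch of *Rarb*, the RARβ gene, for comparison. Capitals mark the hexamers, which in *Cyp26a1* lie on the strand opposite to the gene and read TGAACT.
*Cyp26a1*, chr19:37697770-37697799, plus strand: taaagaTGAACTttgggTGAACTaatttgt
*Rarb*, chr14:16575506-16575535, minus strand: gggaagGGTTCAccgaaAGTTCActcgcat
The pair began 32 bases before the annotated start in *Cyp26a1* and 53 bases before it in *Rarb*. Pairs with 1 or 2 bases between them (DR1 and DR2) occurred in 0.222% and 0.268% of all windows and in none of the members' windows. A match in letters does not show that a receptor binds there.

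Recovered depth was 652542 and 947372 reads in WT, against 629030 and 1047021 in Rxra-KO, so 1 read was worth a normalised read count of 0.993 to 1.51. A group with at most 3 reads in each library was taken to be at the detection floor, a value of 2.98 to 4.54. *Rxra* itself had 20 and 28 reads in WT against 33 and 77 in the libraries labelled Rxra-KO. The targeted gene was therefore not lower there (log2 fold change 0.99, limma adjusted *p* = 0.183). Reads over the deleted exons cannot be separated in a table of whole genes, and all directions below are between libraries as labelled. By qPCR with primers around the deleted exons, the study reports an efficient reduction of *Rxra* and *Rxrb* in LPMs. That was in mice with both genes deleted, not in the line sequenced here. For the *Rxra* line it reports lower GATA-6 and CD102 staining of LPMs. *Lyz2*, the gene at the Cre insertion, fell by 1.03 on the log2 scale (limma adjusted *p* = 0.00163), a call lost without WT replicate 1 (-0.88, adjusted *p* = 0.272) or WT replicate 2 (-1.18, adjusted *p* = 0.0583). The groups thus differ in the Cre insertion at *Lyz2*, and its part in the *Lyz2* fall was not tested. Of 14 LPM markers all were detected and 9 were called lower in Rxra-KO, beside 0.969% of all genes. Among the 9 were *Gata6*, *Icam2* (CD102) and *Adgre1* (F4/80). The summed normalised read count of the 14 was 49287 and 50347 in WT against 26112 and 28253 in Rxra-KO. *Prg4* alone held 28429 and 29683 of this in WT against 15129 and 16567 in Rxra-KO. Of 15 markers listed for small peritoneal and monocyte-derived macrophages, 9 were called higher, beside 1.32% of all genes, and 1 lower. Those called higher included *Lyve1*, *Folr2* and *Cd163*, which also mark resident macrophages, so the list does not define 1 cell type. In Rxra-KO these stood at 1109 and 846, 513 and 519, and 1561 and 756. The sum of all 15 was 949 and 2955 in WT against 7734 and 8590 in Rxra-KO. The gene called lower was the MHC class II gene *H2-Ab1*, whose groups overlapped, at 366 and 2484 in WT against 160 and 610 in Rxra-KO. *H2-Ab1* made up most of the sum in WT replicate 2. *H2-Aa*, *H2-Eb1*, *Cd74* and *Itgax* also had negative fold changes and were not called. Several markers of both lists, such as *Gata6*, *Icam2*, *Ccr2* and *Retnla*, are named by the study from the same libraries, so the marker shift is not independent evidence. The part of this shift in the results that follow was not tested.

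*Cyp26a1* was the 1 retinoid gene of the 7 that differed between genotypes. It encodes the retinoic acid hydroxylase that retinoic acid itself strongly induces. WT libraries held 14 and 15 of its reads, and libraries labelled Rxra-KO held 1 and 0. As normalised read counts these were 22.0 and 16.8 in WT and 2.26 and 0.497 in Rxra-KO, where the deposited values add 0.5 to each read count. Both WT libraries were well above both Rxra-KO libraries, and Rxra-KO was at the detection floor. WT averaged 19.4 ± 3.63 and Rxra-KO 1.38 ± 1.25 (SD, n = 2), and *Cyp26a1* fell by 3.19 on the log2(value + 1) scale, with a standard error of 0.77 (limma adjusted *p* = 0.0035). Taken as pooled reads, 29 in WT and 1 in Rxra-KO, the WT rate was 30.6 times that of Rxra-KO, with an exact 95% interval from 5.08 to 1251 that covers counting error only. A gene counted as called when its adjusted *p* was below 0.05 and its log2 fold change was 0.6 or more in size. This held for 421 of all genes tested (2.29%), with 0.969% lower and 1.32% higher in Rxra-KO, and for 2.43% with edgeR on recovered reads. Of the 7 retinoid genes, 1 was called lower and 0 higher. The split over all genes, 243 higher and 178 lower, was 166 and 70 without WT replicate 2 and 155 and 177 without Rxra-KO replicate 2. Since Rxra-KO was at the floor, the fitted fold change depends on the pseudocount, and it was -4.03 with 0.1 and -1.94 with 5 in place of 1. *Cyp26a1* had the fifth most negative log2 fold change of all genes. The study names *Cyp26a1* among the genes reduced in these libraries, so its direction is not independent evidence.

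**Figure D1:**
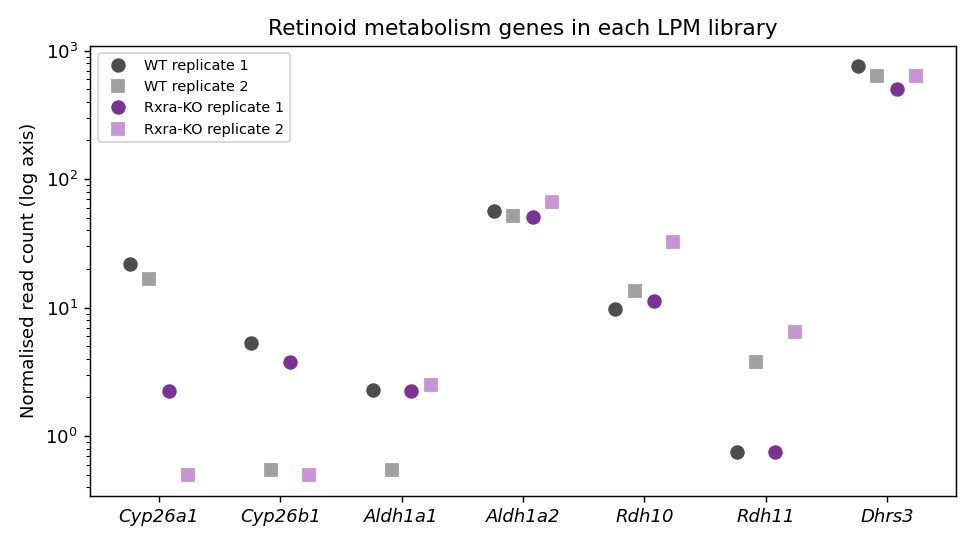
Normalised read count (log axis) of the 7 retinoid metabolism genes, with 1 point for each of the 2 WT and 2 Rxra-KO libraries. *Cyp26a1* stands at 22.0 and 16.8 in WT and at 2.26 and 0.497 in Rxra-KO, while the points of *Aldh1a2* lie together and *Dhrs3* is the highest gene in every library.

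The call for *Cyp26a1* rests on few reads. Its log2 fold change stayed between -3.76 and -2.63 when each library was left out, but the adjusted *p* then ranged from 0.00421 to 0.113. It was 0.0562 without WT replicate 2, 0.0738 without Rxra-KO replicate 2 and 0.113 without WT replicate 1, so the call was lost without any of these 3 libraries. edgeR on the recovered reads called it (adjusted *p* = 0.00138), whereas limma without a mean-variance trend did not (adjusted *p* = 0.392), a setting in which no gene of the table was called.

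**Figure D2:**
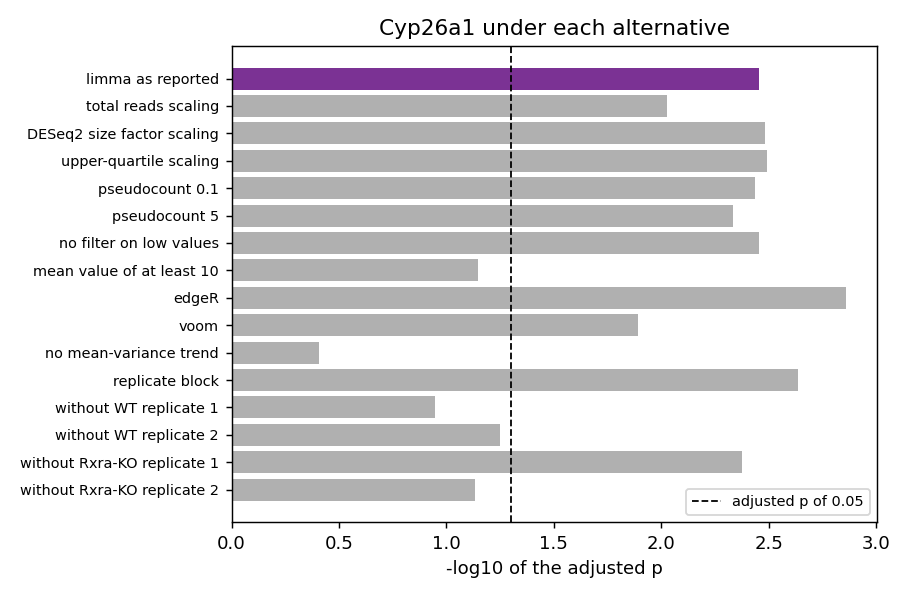
The -log10 of the adjusted p of *Cyp26a1* (horizontal axis) in the reported limma fit and in each alternative for which one could be computed. The dashed line is an adjusted p of 0.05, and 5 of the alternatives fall short of it, 3 of them fits without 1 library.

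The other CYP26 enzymes were barely detected. *Cyp26b1*, which encodes a hydroxylase with the same substrate, had 3 and 0 reads in WT, against 2 and 0 in Rxra-KO. Both groups were at the floor, so no fold change is given for it. *Cyp26c1*, the remaining member of the family, had 1 and 1 reads in WT, against 2 and 0 in Rxra-KO and was likewise at the floor. Summed over the 3 genes, the family had 18 and 16 reads in WT, against 5 and 0 in Rxra-KO, most of the WT reads being those of *Cyp26a1*.

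On the synthesis side, *Aldh1a2*, which encodes the main retinaldehyde dehydrogenase of the peritoneal lining and of retinoic acid-producing dendritic cells, was detected in every library and did not pass the test. It had 37 and 47 reads in WT, against 33 and 66 in Rxra-KO, or normalised read counts of 56.8 and 51.5 against 50.4 and 66.0. The highest and the lowest value were both in Rxra-KO, so the groups overlapped. Its log2 fold change was 0.09 with a 95% interval from -0.57 to 0.75 (limma adjusted *p* = 0.981), and it was -0.10 without Rxra-KO replicate 2. *Aldh1a1*, a related dehydrogenase, had 1 and 0 reads in WT, against 1 and 2 in Rxra-KO, at the floor in both groups. *Aldh1a7*, a close paralog of *Aldh1a1*, had no entry in the table.

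*Rdh10*, which catalyses the first and rate-limiting oxidation of retinol, was uneven between the Rxra-KO libraries. It had 6 and 12 reads in WT, against 7 and 32 in Rxra-KO, which are normalised read counts of 9.84 and 13.6 against 11.3 and 32.3. Rxra-KO replicate 2 was the highest, and Rxra-KO replicate 1 lay between the WT libraries. The log2 fold change of 0.69 (95% interval -0.42 to 1.80, limma adjusted *p* = 0.791) became -0.03 without Rxra-KO replicate 2. *Rdh11*, which encodes a retinal reductase of the endoplasmic reticulum, was highest in the same library, with 0 and 3 reads in WT, against 0 and 6 in Rxra-KO. The Rxra-KO rate of *Rdh11* was 1.89 times that of WT, with an exact 95% interval from 0.404 to 11.7 (limma adjusted *p* = 0.969). Several markers of the mesothelium, the cell layer that lines the cavity, were highest in that library, which is also the deepest, but not all. *Msln* stood at a normalised read count of 14.4 there against 3.79 to 7.05 in the other libraries, and *Upk1b* at 10.4 against 1.63 to 5.30. *Upk3b*, *Wt1*, *Krt18* and *Krt7* were also highest there, with 5, 4, 10 and 7 reads. *Lrrn4*, the marker with the most reads of the list, was lowest there, at 32.3 against 58.3 and 76.5 in WT and 47.4 in Rxra-KO replicate 1. *Col1a1* and *Pdgfra* were lowest there too, and *Krt8* and *Col3a1* were highest in WT replicate 1. Over the whole mesothelial and stromal list, 11 of 16 genes were in the table and none was called, and *Lrrn4* was the 1 gene at an unadjusted *p* under 0.05 in limma, with a log2 fold change of -0.76. *Upk3b* had 0 reads in both WT libraries against 1 and 5 in Rxra-KO. The summed normalised read count was 120 and 138 in WT against 100.1 and 116 in Rxra-KO, with *Lrrn4* the largest part in every library. The part of these markers in the *Rdh10*, *Rdh11* and *Aldh1a2* values was not tested.

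*Dhrs3*, the retinal reductase that returns retinal to retinol, was the most abundant retinoid gene. It had 498 and 586 reads in WT, against 333 and 635 in Rxra-KO, or normalised read counts of 755 and 636 against 502 and 631. The groups did not overlap, but WT replicate 2 and Rxra-KO replicate 2 lay next to each other. WT averaged 696 ± 83.8 and Rxra-KO 567 ± 91.2 (SD, n = 2), and the log2 fold change of -0.30 (95% interval -0.73 to 0.13, limma adjusted *p* = 0.742) did not pass the test. Groups that did not overlap were seen for *Cyp26a1* and *Dhrs3*, 2 of the 7 genes, and for 38.1% of all genes. For any 1 gene, the smallest two-sided *p* that exact permutation of 2 and 2 libraries allows is 0.333.

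**Figure D3:**
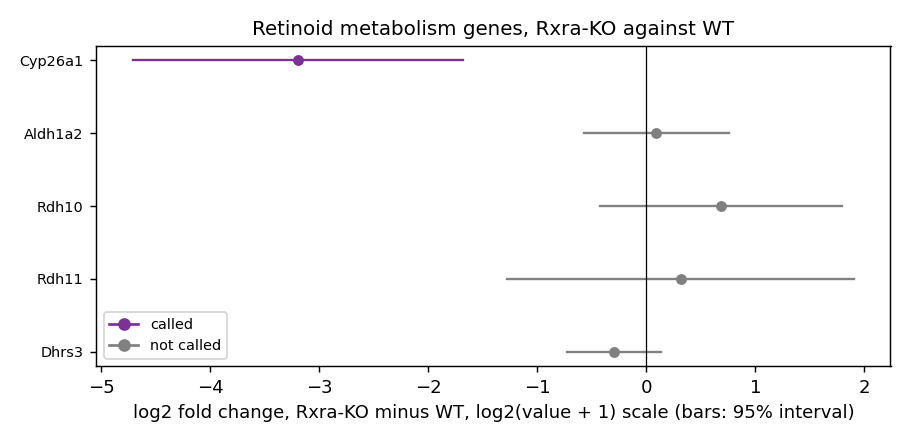
Log2 fold change (Rxra-KO minus WT, log2(value + 1) scale) with its 95% interval from limma for the 5 retinoid metabolism genes above the floor in at least 1 group. The interval of *Cyp26a1* lies wholly below 0, while those of *Aldh1a2*, *Rdh10*, *Rdh11* and *Dhrs3* include 0.

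Levels were compared between genes per kilobase of exon, using GENCODE M21 exon lengths. In WT, the mean normalised read count per kilobase was 287 for *Dhrs3*, 23.9 for *Aldh1a2*, 10.8 for *Cyp26a1* and 3.26 for *Rdh10*. The other genes were under 0.7 per kilobase and at the floor. Neighbours in this order of 4 genes did not overlap in any pair of WT libraries. In Rxra-KO the order of levels began in the same way, with 234 for *Dhrs3* and 25.7 for *Aldh1a2*, but *Rdh10* came next at 6.07, and *Cyp26a1* had 0.769 per kilobase. No exon of the 7 genes overlapped an exon of another gene in the basic GENCODE M21 set.

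For the called gene and the most abundant gene, the genes with the most similar pattern over the 4 libraries were identified among 10045 genes with a mean value of at least 10, by the root mean square distance of centred log2 values. Nearest to *Cyp26a1* were *Ncaph*, *Ccnd1* and *Slpi*, at distances of 0.35, 0.40 and 0.42. *Ncaph* had 18 and 24 reads in WT against 3 and 0 in Rxra-KO. Nearest to *Dhrs3* were *Ints3*, *Xpr1* and *Taf1*, none of which was called. With 4 libraries, such likeness is a description only.

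The rest of the pathway was read from 57 further genes, of which 44 were in the table. Of these, 1 was called, *Fabp5*, against 2.29% of all genes, while 6 had an unadjusted *p* under 0.05. The median log2 fold change was 0.06, or 0 when floor-level genes took their bound, beside 0.02 over all genes. *Fabp5*, a fatty acid-binding protein that can also carry retinoic acid, had 294 and 389 reads in WT, against 72 and 119 in Rxra-KO. As normalised read counts these were 446 and 423 against 109 and 119, so both WT libraries stood far above both Rxra-KO libraries. It fell by 1.92 on the log2 scale (limma adjusted *p* = 5.66e-11) and held its call in every fit but that without a mean-variance trend. *Fabp5* is also named by the study from these libraries.

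Among 18 genes of uptake, transport and storage, 14 were in the table and none was called, with 1 at an unadjusted *p* under 0.05. That gene was *Scarb1*, the scavenger receptor that takes up carotenoids and lipoprotein lipids, with 19 and 13 reads in WT, against 3 and 2 in Rxra-KO (Rxra-KO at the floor). Its limma adjusted *p* was 0.0536, and 3 of the alternatives without a block, among them edgeR at an adjusted *p* of 0.0233, called it lower. *Stra6*, the membrane receptor of RBP4, had 9 and 5 reads against 5 and 6, and *Lrat*, which esterifies retinol for storage, had 8 and 18 against 14 and 20. Neither passed the test (limma adjusted *p* = 0.963 and 0.921).

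Among 23 genes of carotenoid and retinol oxidation, 17 were in the table and none was called by limma or by edgeR, with 3 at an unadjusted *p* under 0.05 in limma. Of those, *Akr1b8*, an aldo-keto reductase, had 5 and 4 reads in WT against 18 and 19 in Rxra-KO, with a log2 fold change of 1.71 and a limma adjusted *p* of 0.149. *Rdh7*, which encodes a retinol dehydrogenase, had 0 and 0 reads against 3 and 6 (limma adjusted *p* = 0.238). *Dhrs7*, a short-chain dehydrogenase with far more reads, lay the other way, with 187 and 242 against 127 and 175, a log2 fold change of -0.58 and a limma adjusted *p* of 0.313. *Scarb1*, *Stra6*, *Lrat*, *Akr1b8*, *Rdh7*, *Dhrs7*, *Cyp27a1* and *Lrrn4* were picked for mention after their values were seen. *Rdh1*, *Rdh7*, *Rdh9*, *Rdh16* and *Rdh19* belong to a cluster of similar genes between which counting could move reads. Among 9 further genes of retinoic acid synthesis, binding and breakdown, 6 were in the table and *Fabp5* was the 1 called.

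None of the 7 receptor genes was called by limma or by edgeR, and *Rxra* was the 1 with an unadjusted *p* under 0.05. *Rarb* had 18 and 23 reads in WT, against 23 and 16 in Rxra-KO, with the highest and the lowest normalised read count, 35.4 and 16.4, both in Rxra-KO. Its log2 fold change was -0.14 (95% interval -1.02 to 0.74, limma adjusted *p* = 0.981), and it was 0.39 without Rxra-KO replicate 2. *Rarb* and *Cyp26a1* both hold a DR5 pair close to their start, but the difference between their fold changes was not tested. *Rarg* had 12 and 13 reads against 12 and 7, *Rara* 4 and 5 against 6 and 5, and *Rxrb* 13 and 16 against 13 and 23. *Rxrg* had 10 and 1 reads against 1 and 3. *Ppard*, the receptor to which FABP5 is thought to deliver retinoic acid, had 1 and 1 reads against 0 and 0 and was at the floor in both groups. At these depths only large differences in receptor genes were detectable.

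Genes that respond to retinoic acid were examined through a list of 30, of which 26 were in the table. In this list 4 genes were called, all lower in Rxra-KO, where 0.969% of all genes were called lower. They were *Cyp26a1*, *Ccnd1* (cyclin D1), *Gata6* and *Nrip1*, which encodes a corepressor of nuclear receptors. The list is not independent of these data, since *Gata6*, *Ccnd1* and *Cyp26a1* are named by the study from the same libraries. Without those and the members, 1 of 21 genes was called, and the median log2 fold change was -0.31, or -0.03 when floor-level genes took their bound. The study used a published set of retinoic acid-induced genes instead. It reports that a large number of the genes lower in these libraries belong to that set, which was not examined here. For *Nrip1* the reads were 103 and 81 in WT against 31 and 49 in Rxra-KO, or normalised read counts of 157 and 88.4 against 47.4 and 49.2. Both WT libraries were higher, though they differed from each other. *Nrip1* fell by 1.27 in log2 units, with limma giving an adjusted *p* of 0.00409, but lost its call without WT replicate 1 (-0.86, adjusted *p* = 0.442), without Rxra-KO replicate 1 (adjusted *p* = 0.0608) and with DESeq2 (adjusted *p* = 0.0664). *Ccnd1* had 113 and 213 reads in WT against 13 and 15 in Rxra-KO and fell by 3.42 in log2 units (limma adjusted *p* = 3.35e-18). *Gata6*, with 35 and 65 reads against 3 and 24, fell by 2.32 (limma adjusted *p* = 5.66e-05) and was not called with DESeq2 (adjusted *p* = 0.0695) or without Rxra-KO replicate 1 (-1.31, adjusted *p* = 0.193). In the other direction, *Cyp27a1*, a mitochondrial sterol hydroxylase, had 140 and 202 reads in WT against 242 and 374 in Rxra-KO. At 0.77, the log2 fold change did not pass (limma adjusted *p* = 0.0548), but it did with scaling by total reads (adjusted *p* = 0.0304) and with voom (adjusted *p* = 0.0442). The called target genes were then 5, with *Cyp27a1* higher. *Cyp27a1* is also listed by the study among the genes significantly higher in these libraries.

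**Figure D4:**
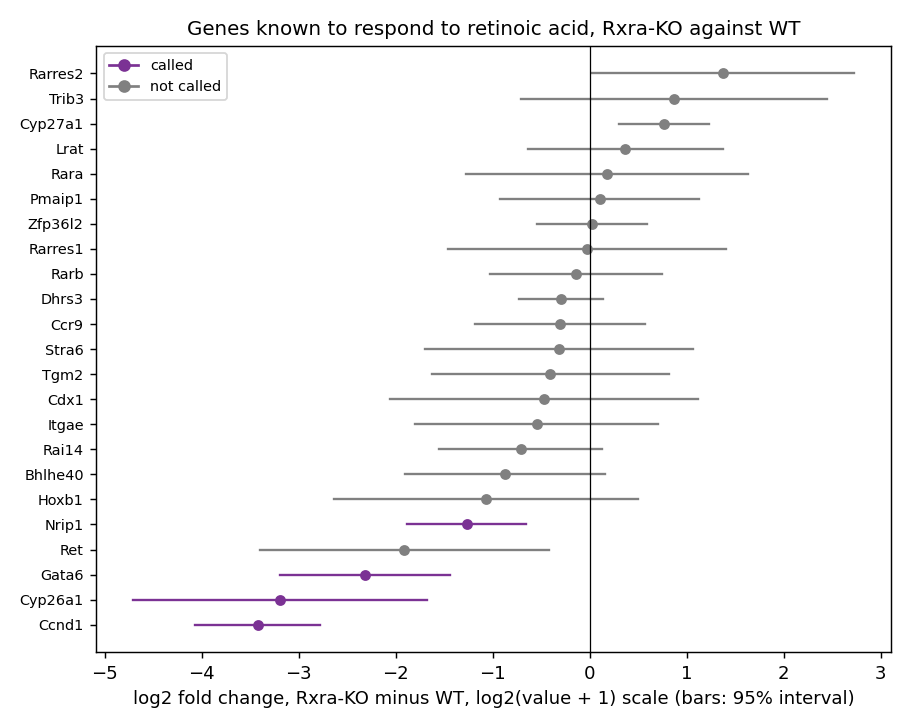
Log2 fold change (Rxra-KO minus WT, log2(value + 1) scale) with its 95% interval from limma for genes known to respond to retinoic acid, leaving out those at the floor in both groups. The 4 called genes, *Cyp26a1*, *Ccnd1*, *Gata6* and *Nrip1*, lie below 0, while *Rarb* at -0.14 and *Dhrs3* at -0.30 have intervals that include 0.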

How the data were processed

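For LPM RNA the authors used the SMART-Seq v4 chemistry, without molecular identifiers, and sequenced on a NextSeq. Per the methods, Kallisto 0.43.0, tximport and limma with TMM scaling were used, with GRCh38, a human build, named for these mouse libraries. What the authors deposited is a normalised signal, (reads + 0.5) per scaled library size, from which 100% gave whole reads (tolerance 0.01 reads). Samples were grouped by their titles. The values were fitted as log2(value + 1) with limma 3.58.1 (R 4.3.3) with a mean-variance trend over all 18364 genes, two-sided, with Benjamini-Hochberg adjustment. This scale understates changes of low genes. A required value of at least 1 in 2 libraries removed no gene. edgeR 4.0.16 and DESeq2 1.42.0 on recovered reads were alternatives. Exact intervals of read ratios cover counting error only. Limma intervals and p-values rest on the spread between libraries, taken mostly from the trend over all genes. The prior had 226.6 degrees of freedom, against 2 from each gene itself. The fits were also run on simulated counts, with the spread taken from these libraries and changes planted only in genes with many reads. Genes with as few reads as *Cyp26a1* were therefore not covered.

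Members and lists were chosen with earlier results of these data known. Named genes were the members, called genes of the retinoid and target lists, the receptors, *Lyz2*, the nearest patterns of the called and the most abundant member, and marker genes bearing on a member. Of the marker lists not described above, *Cd209a* of 11 dendritic cell genes and *Cd2* of 6 T cell genes were called higher, and none of 5 B cell, 10 mast cell and eosinophil or 4 neutrophil genes was called. Older symbols were matched through RefSeq (GRCm38.p6). The study left out samples that did not cluster with their group, a choice that can narrow the spread within groups and favour groups that do not overlap. Whether an LPM RNA library was among those left out is not stated. The deposited columns, here replicates 1 and 2, are numbered 2 and 3 in both groups, with no column numbered 1.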

Additional observations from a re-analysis of the deposited data

How the results depend on the processing

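The number of called genes among all 18364 was 421. It was 235 with DESeq2 and 0 without a mean-variance trend, where 1579 genes had an unadjusted p under 0.05, and it ranged from 236 (without WT replicate 2) to 377 when 1 library was left out. Higher calls were 57.7% of these, between 55.3% and 60.3% under other scalings, 70.3% without WT replicate 2 and 46.7% without Rxra-KO replicate 2. In such fits the lone library of a group is assumed to vary like the others. Among the 7 retinoid metabolism genes, 1 was called, and 0 with a mean value of at least 10 or without the trend, and 0 to 1 with 1 library left out. *Cyp26a1* kept its direction in the 15 alternatives that gave it an adjusted p. Its log2 fold change of -3.19 lost its call with a mean value of at least 10 (adjusted *p* = 0.0710) and without the trend (-3.19), and ranged from -3.76 to -2.63 over the fits without 1 library. DESeq2 gave no adjusted p for it. Over the fits without 1 library, *Aldh1a2* ranged from -0.10 to 0.28, *Rdh10* from -0.032 to 1.41 and *Rdh11* from -0.73 to 1.36, each lowest without Rxra-KO replicate 2, and *Rdh11* was -0.41 without WT replicate 1. In the same fits *Rara* ranged from -0.19 to 0.55, *Rarb* from -0.67 to 0.39, *Rarg* from -1.06 to 0.17, *Rxrg* from -2.15 to 0.54 and *Stra6* from -0.89 to 0.26, so each turned in sign. Calls among the other retinoid pathway genes rose from 1 to 2 with DESeq2 size factors, upper-quartile scaling, edgeR or the replicate block, *Scarb1* being the added gene, and fell to 0 without the trend. Calls among retinoic acid targets went from 4 to 0 without the trend and to between 2 (without WT replicate 1 or Rxra-KO replicate 1) and 3 without 1 library, and rose to 5 with total reads scaling, voom or the replicate block (*Cyp27a1*, 0.77, adjusted *p* = 0.00859 with the block), the added gene being higher. Whether libraries of the same replicate number were paired is not known. Their deviations from the group mean had a correlation of 0.06 over 10049 genes, which cannot exclude pairing where counting error is large. In limma with the replicate block 540 genes were called, *Cyp26a1* among them (adjusted *p* = 0.0023). Genes at the floor in WT, such as *Cyp26b1* and *Aldh1a1*, could not show a fall at this depth. A large rise could be called, as for *Cd2*, with 0 and 0 reads in WT against 11 and 6 in Rxra-KO.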

Other observations

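The search for DR5 pairs was extended, after the data were seen, to all 13664 genes of the table that had a promoter window. A pair was found for 8 genes, of which 1 was called, *Cyp26a1*, beside 303 called (2.22%) among all genes with a window. Besides *Cyp26a1* and *Rarb*, a mean value of at least 10 was reached by *Blvrb*, which encodes biliverdin reductase B, and *Prokr2*, a prokineticin receptor. For *Blvrb*, reads numbered 75 and 149 in WT, then 117 and 229 in Rxra-KO, with 0.56 as log2 fold change (limma adjusted *p* = 0.401). For *Prokr2* they were 19 and 33 against 15 and 27, with -0.36 as log2 fold change (limma adjusted *p* = 0.896). As in *Cyp26a1*, the hexamers of *Blvrb* (capitals, RefSeq GRCm38.p6) lie on the strand opposite to the gene and read TGAACT.
*Blvrb*, chr7:27452393-27452422, plus strand: aaccttTGAACTggcttTGAACTcatagac
The fold changes of the genes with a DR5 pair were not compared with each other by a test.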
